A study of Rattus norvegicus with 12 samples.

Results

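The DNA repair and damage checkpoint genes are a list of 44 genes chosen by name, of which 37 had a probe set annotated to that gene alone and were measured, among 14506 genes in all. Each of the 37 was read by 1 probe set. Atr, Rad9a, Prkdc, Msh6, Ercc2, Ercc4 and Neil3 are not analysed here. The measured members fall into 7 damage sensors and checkpoint kinases, 9 genes of homologous recombination and the Fanconi pathway, 4 of end joining, 8 of base excision and single-strand break repair, 2 of nucleotide excision repair, 1 of mismatch repair, 5 that work at replication forks, and Mgmt, which removes alkyl groups from guanine directly.

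Broken DNA is first bound by sensor proteins, which activate the kinases ATM and ATR and, below them, CHK2 and CHK1. A double-strand break is then either rejoined directly by end joining, which works throughout the cell cycle and is the main route in cells that do not divide, or copied from a sister chromatid by homologous recombination, which is tied to S and G2 phase. Damaged bases and single-strand breaks are handled by glycosylases, an endonuclease, PARP enzymes and the XRCC1 scaffold. Doxorubicin (Dox), an anthracycline used against cancer and toxic to the heart, traps topoisomerase II on broken DNA, so these genes encode the machinery that meets its lesions.

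The data are 12 Affymetrix arrays that read RNA along whole transcripts, of primary cardiac myocytes from neonatal Sprague Dawley rats. The 4 groups of 3 cultures were cells with an siRNA against p300 (p300kd) after 8 h in 1 µM Dox, p300kd cells at 0 h, cells with a non-silencing siRNA (NS) after 8 h in 1 µM Dox, and NS cells at 0 h. Cultures in every group held more than 90% myocytes per the labels, had received 0.1 mmol/L bromodeoxyuridine to hold back fibroblasts, a thymidine analogue that dividing cells build into DNA, and had spent 48 h without serum before the drug. The comparisons ask which repair genes differ after the drug and whether less p300, a lysine acetyltransferase and coactivator of transcription encoded by Ep300, changes their level or their response. Drug and elapsed time cannot be told apart, because no culture was held for 8 h without Dox.

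Of the markers for cardiac myocytes, 12 of 12 lay above the median level of all genes. So did 11 of 12 fibroblast, 8 of 8 smooth muscle and pericyte, 2 of 8 endothelial and 4 of 11 macrophage and leukocyte markers. Lying above that median thus does not measure the purity of the cultures. After Dox 0 of 12 myocyte markers passed the test in either kind of cell. With the experiment as a block 4 of them rose and 1 fell in p300kd cells, by 0.20 at most, and 0 passed in NS cells. Of 12 fibroblast markers 2 rose and 1 fell in p300kd cells after Dox and 1 rose and 1 fell in NS cells (with the block 4 and 1 in p300kd, 1 and 1 in NS cells). Of 8 endothelial markers 0 rose and 2 fell in each kind of cell (1 and 4 in each with the block). Of 8 smooth muscle and pericyte markers 0 rose and 2 fell in each (with the block 2 and 3 in p300kd, 2 and 2 in NS cells). Of 11 macrophage and leukocyte markers 1 rose and 2 fell in p300kd cells and 0 rose and 1 fell in NS cells (with the block 3 and 2 in p300kd, 2 and 1 in NS cells). Their part in the changes was not tested. Ep300 was lower in p300kd than in NS cells on every array, at 9.64 to 10.10 against 10.72 to 10.86 log2 intensity at 8 h and at 10.02 to 10.41 against 11.01 to 11.16 at 0 h, and averaged over both times it was lower by 0.93 (-0.93, SE 0.0894, adjusted p = 0.00212 in limma; lost without experiment 2 or 3). The knockdown was thus partial. After Dox Ep300 was at -0.31 in p300kd and -0.34 in NS cells, past the threshold with the block alone (adjusted p = 0.00249 and 0.00153). Levels are log2 intensities after the authors' RMA, and a change is a difference of group means on that scale with its standard error (SE, n = 3 arrays a group). A gene passed at an adjusted p under 0.05 in limma's moderated test over all 14506 genes. The 4 cultures of a replicate number, 1 in each group, deviated together and are called an experiment, and the value with the experiment as a block is given where it changes the call of a member or the counts of a list. The bulk arrays cannot tell fewer cells of a type from less RNA per cell.

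After 8 h of Dox 5 of 9 recombination and Fanconi genes fell in p300kd cells and 5 of 9 in NS cells, while 1 of 4 end joining genes rose in p300kd and 0 of 4 in NS cells, or 4 of 4 in each with the experiment as a block. In p300kd cells 4 of the 37 members rose and 11 fell, against 13.9% of all genes that rose and 17.5% that fell. In NS cells 1 rose and 10 fell, against 11.1% rising and 16.4% falling among all genes. The share of members that fell was thus 29.7% in p300kd and 27.0% in NS cells. The median change over the members was -0.12 in p300kd and -0.10 in NS cells, while over all genes it was 0.04 in both. With the experiment as a block 8 members rose and 14 fell in each kind of cell (all genes: 22.9% and 22.8% in p300kd, 21.6% and 21.9% in NS cells). Scaling bears on the balance of rises and falls: when every array was shifted to a common median the typical change over all genes became 0.14 in both kinds of cell, and then 7 members rose and 8 fell in p300kd cells (29.9% and 13.7% of all genes), and 7 rose and 9 fell in NS cells (26.2% and 12.6% of all genes). Of the 37, 13 had all 8 h arrays below all 0 h arrays and 4 had them above in p300kd cells (21.6% of all genes each way), and 13 and 3 in NS cells (21.2% and 20.1% of all genes).

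**Figure D1:**
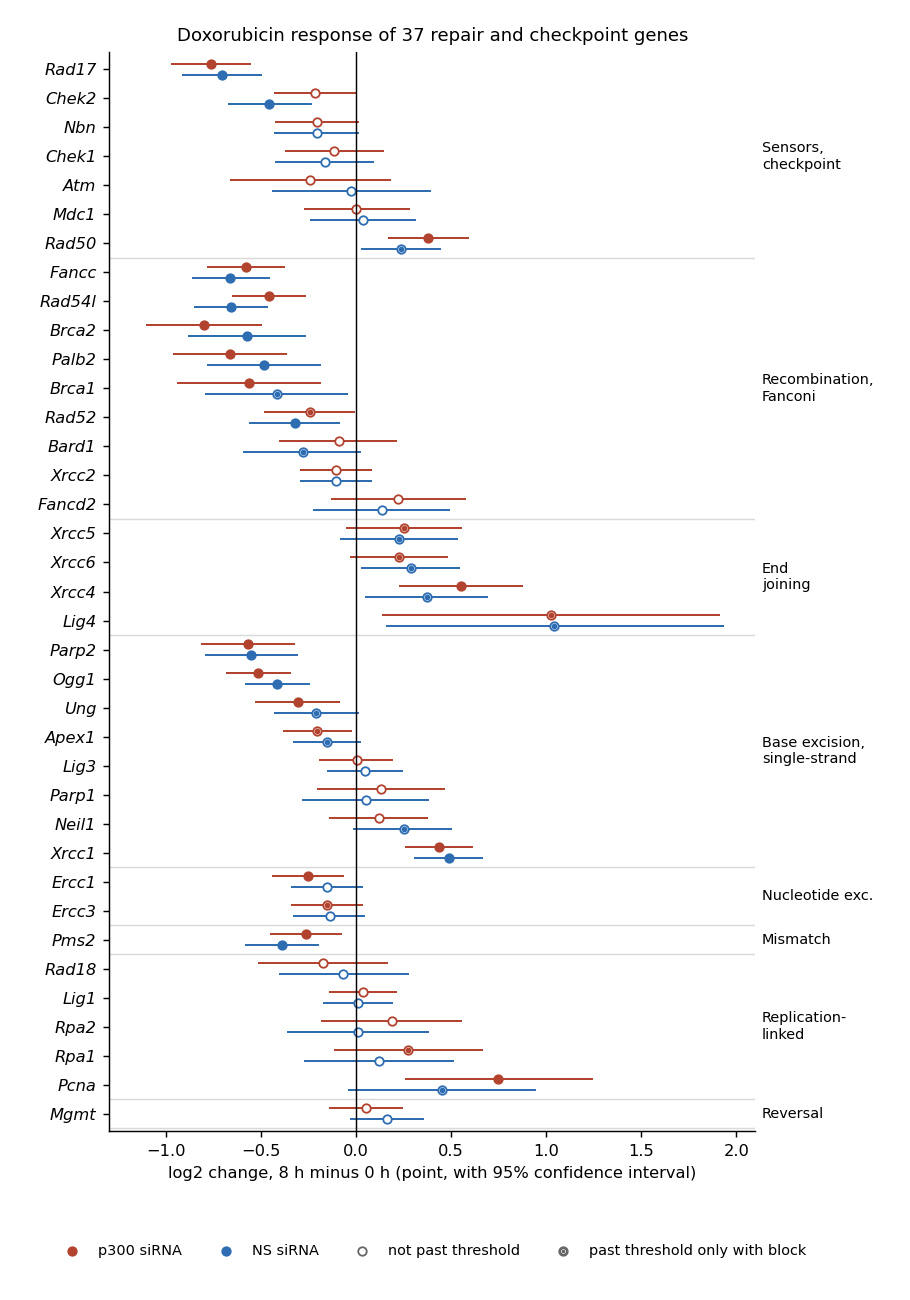
Change after 8 h of doxorubicin for the 37 genes by role; the x axis is the log2 change, 8 h minus 0 h, with its 95% confidence interval, in p300 siRNA and NS siRNA cells (3 arrays a group). Filled points passed, open points did not, and dotted open points passed with the experiment as a block; the end joining genes lie right of 0 and most recombination genes left of it, with Lig4 the most uncertain.

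Homologous recombination and Fanconi genes held the largest number of falls: 5 of 9 fell in p300kd cells and 5 of 9 in NS cells, and 0 rose in either. Brca2, a core mediator of homologous recombination, read 7.40, 6.94 and 7.07 in p300kd cells at 8 h and 8.10, 7.89 and 7.83 at 0 h. In NS cells Brca2 read 7.35, 7.12 and 7.28 at 8 h and 8.09, 7.57 and 7.82 at 0 h. All 8 h arrays lay below the 0 h arrays of the same siRNA, and the fall was 1.74-fold in p300kd cells (-0.80, SE 0.141, adjusted p = 0.000903) and 1.49-fold in NS cells (-0.57, SE 0.141, adjusted p = 0.00885; lost without experiment 3). Palb2, whose product joins BRCA1 to BRCA2, behaved likewise. It read 4.91, 5.02 and 4.84 at 8 h and 5.67, 5.82 and 5.27 at 0 h in p300kd cells (-0.66, SE 0.136, adjusted p = 0.00259). In NS cells it read 5.13, 4.68 and 4.87 at 8 h and 5.30, 5.50 and 5.34 at 0 h (-0.49, SE 0.136, adjusted p = 0.0176; lost without experiment 2, without experiment 3 and without 3 single NS arrays). Palb2 was the dimmest member.

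Brca1 completed the chain of the BRCA complex but split by experiment. Its level in p300kd cells was 7.75, 7.05 and 7.17 at 8 h and 7.84, 7.94 and 7.88 at 0 h, and in NS cells 7.66, 7.22 and 7.05 at 8 h and 7.68, 7.72 and 7.78 at 0 h. The change was thus -0.09, -0.89 and -0.72 in experiments 1 to 3 in p300kd cells and -0.02, -0.50 and -0.73 in NS cells, with both cultures of experiment 1 close to their 0 h level. Brca1 fell in p300kd cells (-0.56, SE 0.171, adjusted p = 0.0239; lost without experiment 2 or 3 and without 4 single p300kd arrays), and in NS cells it passed only with the block (-0.42, adjusted p = 0.0900, or 0.0212 with the block). Bard1, the partner of BRCA1 in its ubiquitin ligase, changed by -0.09 in p300kd cells (adjusted p = 0.657) and by -0.28 in NS cells (adjusted p = 0.160, or 0.0165 with the block).

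Rad54l, a motor protein of homologous recombination, was tight at 0 h in NS cells, and no 8 h array reached a 0 h array. It read 6.60, 6.84 and 6.87 at 8 h and 7.08, 7.27 and 7.33 at 0 h in p300kd cells, and 6.55, 6.70 and 6.62 at 8 h and 7.29, 7.29 and 7.28 at 0 h in NS cells. The fall was 1.37-fold in p300kd cells (-0.46, SE 0.0866, adjusted p = 0.00145) and 1.58-fold in NS cells (-0.66, SE 0.0866, adjusted p = 0.000130), and it passed under all 22 alternatives that kept it. Rad52, which anneals single strands, changed by -0.24 in p300kd cells (adjusted p = 0.107, or 0.0103 with the block) and fell by 0.32 in NS cells, where adjusted p = 0.0426 was lost under 13 of 23 alternatives. Xrcc2, also of homologous recombination, was flat at -0.11 in p300kd and -0.10 in NS cells (95% confidence interval -0.29 to 0.08 in both).

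The Fanconi pathway, which unhooks crosslinks between strands, was split between its members. Fancc, a subunit of the core complex, read 6.72, 6.73 and 6.67 at 8 h and 7.19, 7.39 and 7.28 at 0 h in p300kd cells. In NS cells it read 6.72, 6.46 and 6.32 at 8 h and 7.11, 7.21 and 7.17 at 0 h. The groups did not overlap, and the fall was -0.58 in p300kd cells (SE 0.0922, adjusted p = 0.000444) and -0.66 in NS cells (SE 0.0922, adjusted p = 0.000199), past the threshold under all 22 alternatives that kept it. Fancd2, which the core complex marks with ubiquitin, did not pass (0.22 in p300kd cells, adjusted p = 0.336; 0.14 in NS cells, adjusted p = 0.580). Over all 9 genes, 48 of 54 differences taken within an experiment were below 0, from -0.95 to 0.30. The count is given as a description, since genes read on the same arrays are not independent.

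Fancc, Chek1 and Fancd2 hold, in their RefSeq promoter windows (250 bases before to 50 after the gene start, build GRCr8), the letters TTTCCCGC of an E2F site read on the other strand, within 30 bases of the start. They are shown because genes of this family are known targets of the E2F factors of S phase, while these members differed in response. Capitals mark the match, which begins 29 bases before the start in Fancc (chr17:1686839-1687138, plus strand), 28 before it in Chek1 (chr8:44629794-44630093, minus strand) and 9 after it in Fancd2 (chr4:148234458-148234757, plus strand).
Fancc: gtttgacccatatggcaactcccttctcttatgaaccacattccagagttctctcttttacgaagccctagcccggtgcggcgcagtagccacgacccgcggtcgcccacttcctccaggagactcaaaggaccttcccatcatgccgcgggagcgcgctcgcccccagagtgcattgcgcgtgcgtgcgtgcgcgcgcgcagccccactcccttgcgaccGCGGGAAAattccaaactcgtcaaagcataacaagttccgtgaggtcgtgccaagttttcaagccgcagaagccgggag
Chek1: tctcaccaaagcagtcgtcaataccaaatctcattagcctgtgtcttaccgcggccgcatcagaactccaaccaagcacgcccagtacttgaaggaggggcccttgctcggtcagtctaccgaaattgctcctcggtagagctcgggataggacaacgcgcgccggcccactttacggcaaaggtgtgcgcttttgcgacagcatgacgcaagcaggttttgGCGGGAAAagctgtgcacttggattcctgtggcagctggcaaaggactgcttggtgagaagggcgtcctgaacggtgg
Fancd2: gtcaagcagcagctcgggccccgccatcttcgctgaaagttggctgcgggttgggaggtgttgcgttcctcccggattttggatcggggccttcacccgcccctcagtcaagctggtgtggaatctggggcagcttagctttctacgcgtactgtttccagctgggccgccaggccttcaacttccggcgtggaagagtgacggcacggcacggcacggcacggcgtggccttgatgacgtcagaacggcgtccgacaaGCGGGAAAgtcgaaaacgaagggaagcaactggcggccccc
TTTCCCGC, searched on both strands, stood in 5 of the 33 members with a window (15.2%; the others are Atm and Bard1) and in 1.56% of the 11950 tested genes with one. TTTGGCGC, the other E2F form searched, stood in 0 of 33 members and in 0.736% of tested genes. Of the 5 members with a match Fancc fell, and Chek1, Fancd2 and Atm passed in neither kind of cell with or without the block, while Bard1 passed in NS cells with the block alone. Of the other letters searched, CCAAT (NF-Y) stood in 39.4% of members and 38.4% of tested genes, GGGCGG (SP factors) in 63.6% and 50.2%, and TGACGTCA (CREB and ATF) in 3.03% and 2.46%. A match describes these letters and does not show that a factor binds there.

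The 4 end joining members moved the other way. All 4 rose with the experiment as a block in both kinds of cell, while without it Xrcc4 alone rose, in p300kd cells. Further end joining genes, among them Nhej1, Dclre1c, Poll, Polm and Polq, are in the list of 63 other repair and checkpoint genes below. Polq fell. Of that list only Polh and Mre11 rose in p300kd cells, and only Polh and Parp3 in NS cells. With the block 4 of the list rose in p300kd and 2 in NS cells. Lig4, the ligase that seals the break, had the largest rise of any member and the widest scatter. In p300kd cells it read 10.97, 9.62 and 9.90 at 8 h and 9.88, 8.94 and 8.59 at 0 h, and in NS cells 10.56, 10.14 and 9.66 at 8 h and 9.78, 8.59 and 8.86 at 0 h. The groups overlapped, and experiment 1 was the highest array in every group. Its spread within groups was 0.621 log2, above that of 99.9% of all genes. Within experiments Lig4 was higher after Dox by 1.09, 0.68 and 1.31 in p300kd cells and by 0.78, 1.55 and 0.80 in NS cells. The means differed 2.04-fold in p300kd cells (1.03, SE 0.409, adjusted p = 0.0750, or 2.56e-05 with the block) and 2.06-fold in NS cells (1.04, SE 0.409, adjusted p = 0.0770, or 2.83e-05 with the block).

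Xrcc4, the scaffold that holds LIG4, read 7.78, 8.11 and 8.40 at 8 h and 7.49, 7.58 and 7.57 at 0 h in p300kd cells. It read 7.72, 8.16 and 8.04 at 8 h and 7.47, 7.57 and 7.78 at 0 h in NS cells, where the groups overlapped. Xrcc4 rose in p300kd cells (0.55, SE 0.147, adjusted p = 0.0122; lost without experiment 2 or 3 and without replicate 3 of the 8 h p300kd group), and in NS cells with the block (0.37, adjusted p = 0.0812, or 0.00582 with the block). The KU70 and KU80 genes Xrcc6 and Xrcc5, whose products cap the broken end, changed less. Xrcc6 was at 0.22 in p300kd and 0.29 in NS cells (adjusted p = 0.0132 and 0.00291 with the block), and Xrcc5 at 0.25 and 0.23 (adjusted p = 0.0163 and 0.0300 with the block). In all, 24 of 24 differences within an experiment over the 4 genes were above 0, from 0.01 to 1.55. This count is a description, since genes read on the same arrays are not independent.

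**Figure D2:**
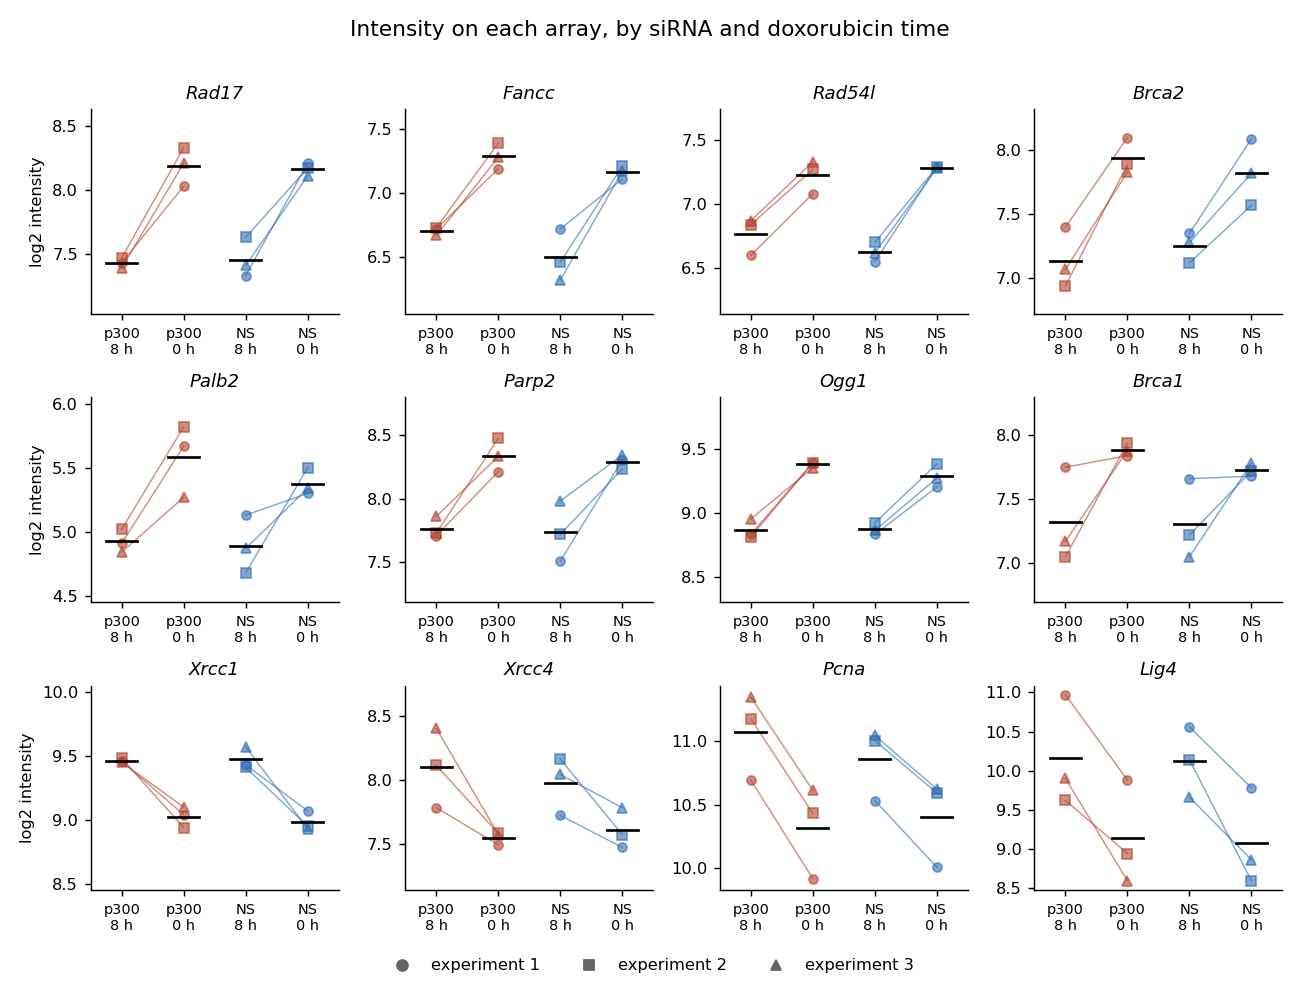
Log2 intensity (y axis) of 12 members on each of the 12 arrays, by siRNA and time (x axis, 8 h left of 0 h); symbols mark the experiment, thin lines join the 2 arrays of an experiment and black bars are group means. Rad17, Fancc, Rad54l, Brca2, Palb2, Parp2, Ogg1 and Brca1 are lower at 8 h and Xrcc1, Xrcc4, Pcna and Lig4 higher, with the Brca1 lines of experiment 1 nearly flat.

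Among the damage sensors and checkpoint kinases Rad17, which loads the 9-1-1 clamp at damaged DNA on the way to ATR, fell most. It read 7.43, 7.47 and 7.39 at 8 h and 8.03, 8.33 and 8.21 at 0 h in p300kd cells. In NS cells it read 7.33, 7.63 and 7.41 at 8 h and 8.21, 8.17 and 8.11 at 0 h. The 8 h arrays stood clear of the 0 h arrays, and the fall was 1.70-fold in p300kd cells (-0.76, SE 0.0942, adjusted p = 7.05e-05) and 1.63-fold in NS cells (-0.71, SE 0.0942, adjusted p = 0.000146), past the threshold under all 22 alternatives that kept it.

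The kinases themselves moved less. Chek2, which carries the ATM signal, read 7.16, 7.29 and 7.09 at 8 h and 7.42, 7.20 and 7.57 at 0 h in p300kd cells, where the groups overlapped (-0.22, adjusted p = 0.124). In NS cells it read 6.96, 6.93 and 6.78 at 8 h and 7.21, 7.41 and 7.41 at 0 h and fell (-0.46, SE 0.100, adjusted p = 0.00464; lost without experiment 3). That Chek2 passed in NS and not in p300kd cells does not show a difference between them, since the difference of the responses was 0.24 (95% confidence interval -0.07 to 0.55, adjusted p = 1.00). Chek1, of the ATR branch, was at -0.12 in p300kd and -0.17 in NS cells, and Atm at -0.24 and -0.03, with intervals for Atm from -0.66 to 0.18 and from -0.44 to 0.39.

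The MRN complex, which tethers broken ends and recruits ATM, did not move as a unit. Rad50 read 9.55, 9.31 and 9.58 at 8 h and 9.16, 9.04 and 9.11 at 0 h in p300kd cells and rose (0.38, SE 0.0948, adjusted p = 0.00839; lost without experiment 3). In NS cells it read 9.38, 9.40 and 9.28 at 8 h and 9.19, 8.98 and 9.19 at 0 h (0.23, adjusted p = 0.0864, or 0.0229 with the block). Nbn, its partner, was at -0.20 in p300kd and -0.21 in NS cells (adjusted p = 0.145 and 0.149). Mdc1, the adaptor that spreads the signal along chromatin, was at 0.00 and 0.04 (adjusted p = 0.998 and 0.866).

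Base excision and single-strand break genes split within the pathway. Xrcc1, the scaffold on which single-strand breaks are closed, rose in both kinds of cell and was the only member to do so without the block. It read 9.46, 9.48 and 9.45 at 8 h and 9.04, 8.94 and 9.10 at 0 h in p300kd cells, and 9.43, 9.41 and 9.57 at 8 h and 9.07, 8.95 and 8.93 at 0 h in NS cells. The 8 h and 0 h arrays did not overlap, and the rise was 1.35-fold in p300kd cells (0.44, SE 0.0804, adjusted p = 0.00126; lost without experiment 2) and 1.40-fold in NS cells (0.49, SE 0.0804, adjusted p = 0.000700). Lig3, the ligase bound to XRCC1, did not pass (0.00 in p300kd and 0.04 in NS cells, 95% confidence intervals -0.19 to 0.19 and -0.15 to 0.24).

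Parp2, which marks single-strand breaks with poly(ADP-ribose), read 7.71, 7.73 and 7.86 at 8 h and 8.21, 8.47 and 8.33 at 0 h in p300kd cells. In NS cells it read 7.51, 7.72 and 7.98 at 8 h and 8.30, 8.23 and 8.34 at 0 h. Parp2 fell by 0.57 in p300kd cells (SE 0.110, adjusted p = 0.00173) and by 0.55 in NS cells (SE 0.110, adjusted p = 0.00250), both lost without experiment 2. Parp1, the more abundant enzyme of that activity in most cells, did not pass (0.13 in p300kd cells, adjusted p = 0.558; 0.05 in NS cells, adjusted p = 0.835).

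Among the 3 measured members that encode DNA glycosylases, which cut out damaged bases, Ogg1 and Ung fell in p300kd cells and Ogg1 in NS cells. Ogg1, which removes 8-oxoguanine, the chief oxidised base, read 8.83, 8.81 and 8.95 at 8 h and 9.39, 9.39 and 9.35 at 0 h in p300kd cells. In NS cells Ogg1 read 8.83, 8.92 and 8.86 at 8 h and 9.20, 9.38 and 9.27 at 0 h. The fall of 0.52 in p300kd cells (SE 0.0762, adjusted p = 0.000263) and of 0.42 in NS cells (SE 0.0762, adjusted p = 0.00143) passed under all 23 alternatives. Ung, which removes uracil, fell in p300kd cells (-0.31, adjusted p = 0.0361; lost under 9 of 23 alternatives) and, with the block, in NS cells (-0.21, adjusted p = 0.150, or 0.0148 with the block). Apex1, the endonuclease that opens the strand after a glycosylase, passed with the block alone (-0.21 in p300kd cells, adjusted p = 0.00340; -0.15 in NS cells, adjusted p = 0.0232). Neil1, a glycosylase for oxidised pyrimidines, was at 0.12 in p300kd and 0.25 in NS cells, the second past the threshold with the block (adjusted p = 0.0278).

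The mismatch repair gene Pms2, a subunit of the endonuclease that nicks the faulty strand, fell by 0.26 in p300kd cells (SE 0.0861, adjusted p = 0.0336; lost under 11 of 22 alternatives) and by 0.39 in NS cells (SE 0.0861, adjusted p = 0.00483; lost without experiment 3). In nucleotide excision repair, which cuts out bulky adducts, Ercc1, of the nuclease that makes one incision, fell in p300kd cells (-0.25, SE 0.0844, adjusted p = 0.0359; lost under 11 of 23 alternatives) and did not pass in NS cells (-0.16, adjusted p = 0.198). Ercc3, a helicase of TFIIH, was at -0.16 in p300kd cells (adjusted p = 0.192, or 0.0313 with the block) and -0.14 in NS cells (adjusted p = 0.250).

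Among genes that work at replication forks, Pcna, the sliding clamp and a known p53 target, stood apart. It read 10.69, 11.17 and 11.34 at 8 h and 9.92, 10.43 and 10.61 at 0 h in p300kd cells. In NS cells Pcna read 10.53, 11.00 and 11.04 at 8 h and 10.01, 10.59 and 10.62 at 0 h. Experiment 1 was low throughout, while the differences within experiments were 0.78, 0.74 and 0.73 in p300kd cells and 0.52, 0.42 and 0.41 in NS cells. Pcna rose 1.68-fold in p300kd cells (0.75, SE 0.225, adjusted p = 0.0228; lost without experiment 2 or 3 and without 3 single p300kd arrays) and, with the block, in NS cells (0.45, adjusted p = 0.161, or 2.11e-05 with the block). Rpa1 and Rpa2, of the complex that coats single-stranded DNA, were at 0.27 and 0.19 in p300kd and 0.12 and 0.01 in NS cells, and of these Rpa1 in p300kd cells passed with the block (adjusted p = 0.00146). The replicative ligase gene Lig1 (0.03 in p300kd and 0.01 in NS cells), Rad18, of damage tolerance at stalled forks (-0.18 and -0.07), and Mgmt (0.05 and 0.16) did not pass.

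The falls lay mostly among the dimmer members. Of the 15 members below the median level of all genes, 8 fell and 1 rose in p300kd cells. In NS cells 8 of them fell and 0 rose. Of all dim genes 9.10% fell and 9.68% rose in p300kd cells, and 9.06% fell and 7.46% rose in NS cells. Of the 22 brighter members 3 fell and 3 rose in p300kd cells, against 26.0% falling and 18.1% rising among all brighter genes, and 2 fell and 1 rose in NS cells, against 23.7% and 14.8%. When dim genes were left out, 22 members remained in the fit and 7 were called in p300kd and 3 in NS cells. In p300kd cells 3 rose and 4 fell, against 20.7% rising and 28.8% falling among the 7709 genes kept. In NS cells 1 rose and 2 fell, against 17.5% and 26.6%. The sign of the change was the same in p300kd and NS cells for 37 of 37 members (84.1% of all genes), and across the 37 genes both changes had a Pearson r of 0.948 (0.946 across all genes), given as a description, since genes of 1 set of arrays are not independent.

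Other repair and checkpoint genes, a list of 63 measured genes, had more falls than rises: 24 fell and 2 rose in p300kd cells, and 24 fell and 2 rose in NS cells, with medians of -0.22 and -0.20. With the block 31 fell and 4 rose in p300kd cells and 28 fell and 2 rose in NS cells. Wee1, the kinase that holds CDK1 inactive, fell by 0.84 in p300kd and 1.05 in NS cells, Smug1, a uracil glycosylase, by 0.87 and 0.78, Cdc25b, a phosphatase that activates CDK1, by 0.74 and 0.71, and Hus1, a subunit of the 9-1-1 clamp that RAD17 loads, by 0.66 and 0.70. Polh, the polymerase that copies past damage, rose by 0.62 in p300kd and 0.66 in NS cells. Parp3 was at 0.24 in p300kd cells (adjusted p = 0.0579, or 0.00678 with the block) and rose by 0.29 in NS cells. Alkbh2 (-0.19) and Cdc25a (-0.05) did not pass in NS cells.

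Genes of the cell cycle moved beside the recombination genes. Of 11 mitosis genes 8 fell and 0 rose in p300kd cells and 8 fell and 0 rose in NS cells (9 and 0 in each with the block), among them Cdc20 (-1.83 and -1.63) and Plk1 (-1.24 and -1.36). Their summed intensity was 7110 to 8970 at 8 h and 13400 to 15800 at 0 h in p300kd cells, and 6930 to 8160 at 8 h and 11800 to 15400 at 0 h in NS cells. Of 19 replication and S phase genes 7 fell and 2 rose in p300kd cells and 7 fell and 1 rose in NS cells (with the block 10 and 3 in p300kd, 8 and 4 in NS cells), with Mcm2, of the replicative helicase, at -1.14 and -0.86 and Tyms, of thymidylate synthesis, at 0.77 in both. Of 18 p53 targets 11 rose and 1 fell in p300kd cells and 11 rose and 2 fell in NS cells (13 and 2 in each with the block), with Cdkn1a, the cyclin kinase inhibitor, at 0.59 and 0.68. The part of cell division in the changes of the repair genes was not tested.

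**Figure D3:**
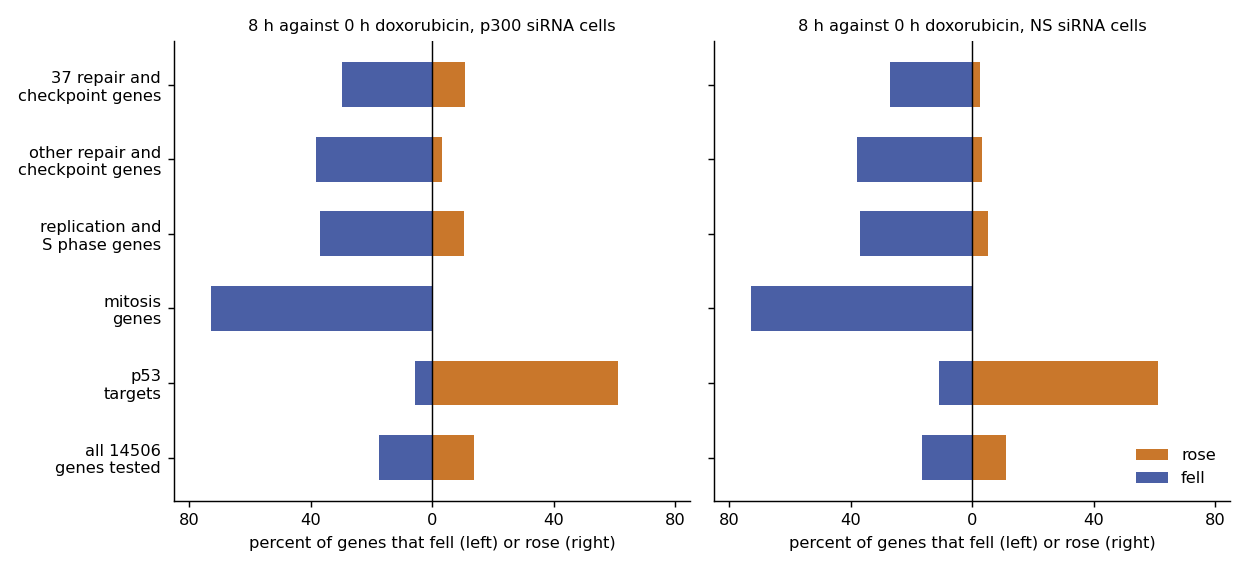
Share of genes that rose (right of 0) or fell (left of 0) after 8 h of doxorubicin, in percent on the x axis, for the 37 members, 4 other lists and all 14506 genes tested, in p300 siRNA cells and in NS siRNA cells. Members fell in 29.7% and 27.0% of cases, beside 17.5% and 16.4% of all genes.

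Less p300 was not seen to change the level of any member. At 8 h 0 of 37 passed (p300kd minus NS, limma), when 0.0483% of all genes did. An unadjusted p under 0.05 was seen there for 3 members and for 7.96% of all genes. At 0 h 0 of 37 passed (0.0207% of all genes), and 0 had an unadjusted p under 0.05 (6.95% of all genes). Averaged over both times 0 of 37 passed (1.25% of all genes), and 3 had an unadjusted p under 0.05 (12.7% of all genes). The block gave 0 of 37 at 8 h (3.14% of all genes), 0 of 37 at 0 h (2.69%) and 1 of 37 on average (9.51%). That member was Rpa1, at -0.16 (adjusted p = 0.688, or 0.0320 with the block), lower in p300kd cells by 0.12, 0.20 and 0.15 in the 3 experiments. Some markers of other cells also changed in this comparison. On average over both times 4 of 11 macrophage and leukocyte markers fell (8 with the block), 0 of 12 fibroblast markers (6 with the block, Postn at -0.49 the most), 1 of 8 smooth muscle and pericyte markers, Cspg4 at -0.37 (2 fell and 1 rose with the block), and 0 of 8 endothelial markers (1 with the block). The summed intensity of the macrophage and leukocyte markers was 7350 to 9490 in p300kd against 9040 to 11800 in NS cells at 8 h and 6430 to 9700 against 9350 to 11400 at 0 h. Their part in the difference was not tested.

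The differences at 8 h ran from -0.14 to 0.29 and those at 0 h from -0.23 to 0.21. Chek2 was the highest at 8 h, at 7.16, 7.29 and 7.09 in p300kd against 6.96, 6.93 and 6.78 in NS cells (0.29, 95% confidence interval 0.07 to 0.51, adjusted p = 0.443). Pms2 (0.21) was the only other member whose p300kd arrays lay wholly above the NS arrays at 8 h, and Neil1 (0.21) and Brca1 (0.16) did so at 0 h, as 4.76% of all genes did at 8 h and 6.18% at 0 h. No member lay wholly below, as 6.29% of all genes did at 8 h and 6.82% at 0 h. The intervals, from the fit without the block, bound what that fit could have missed. With the block the SE could be smaller, as for Lig4 at 8 h (0.141 against 0.409). At 8 h the 95% interval lay within 0.5 log2 of 0 for 32 of 37 members and at 0 h for 31 of 37, with Lig4 the widest, from -0.84 to 0.93 at 8 h.

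**Figure D4:**
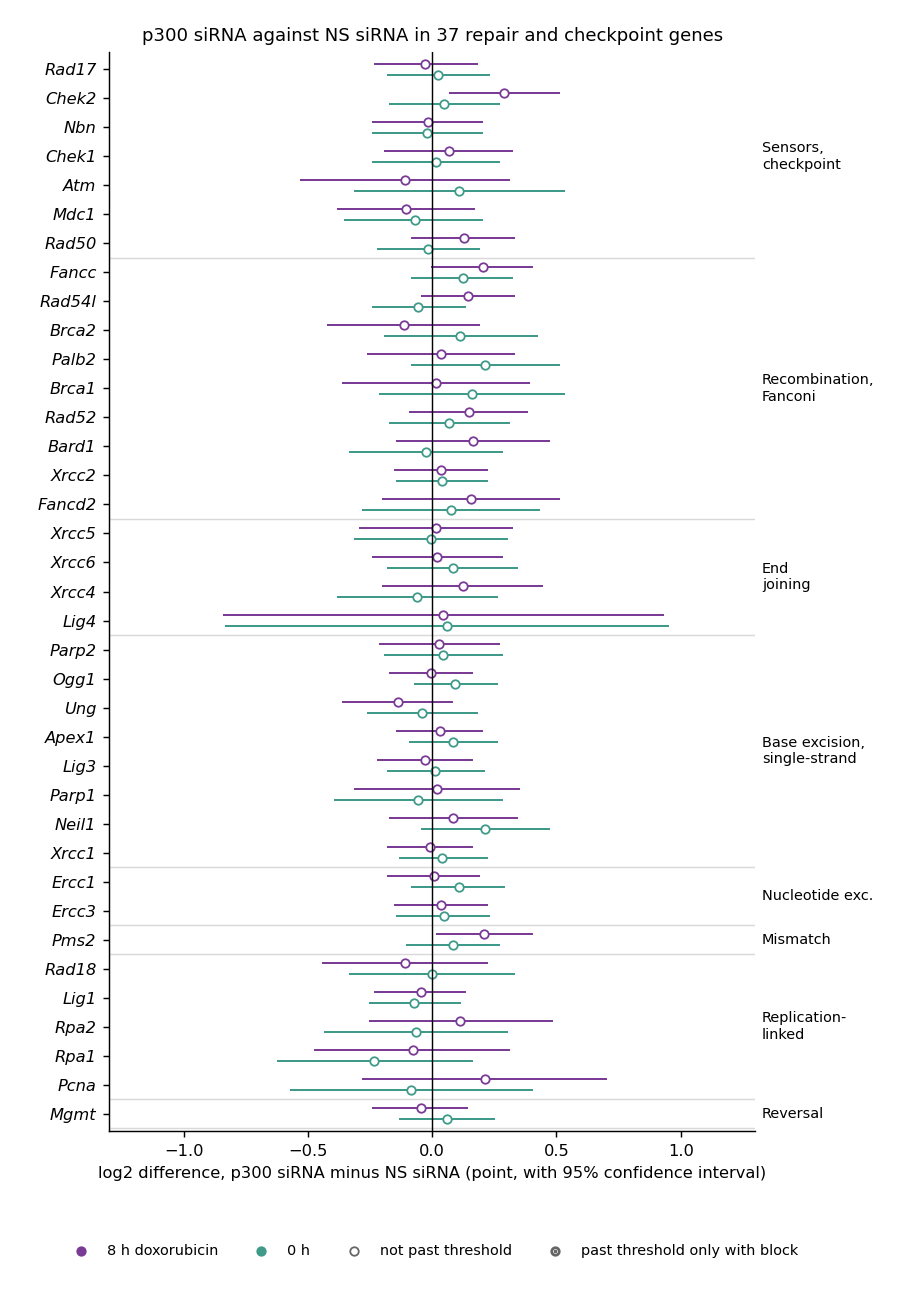
Difference between p300 siRNA and NS siRNA cells for the 37 genes by role; the x axis is the log2 difference, p300 siRNA minus NS siRNA, with its 95% confidence interval, at 8 h and at 0 h of doxorubicin (3 arrays a group). No point passed the threshold, and the changes lie between -0.23 and 0.29.

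The response to Dox did not differ detectably between p300kd and NS cells for any member. The difference of the responses (p300kd minus NS) passed in limma for 0 of 37 members and 0% of all genes. It had an unadjusted p under 0.05 for 0 members and 1.57% of all genes. With the block it passed for 0 of 37, with an unadjusted p under 0.05 for 1 member and 4.41% of all genes. It ran from -0.23 in Brca2, which fell by 0.80 in p300kd and by 0.57 in NS cells (95% confidence interval of the difference -0.66 to 0.20), to 0.30 in Pcna. These intervals, from the fit without the block, are wide: they lay within 0.5 log2 of 0 for 23 of 37 members. With the block the SE could be smaller, as for Pcna (0.0832 against 0.319).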

How the data were processed

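The authors deposited 1 intensity value per probe set and array on a linear scale; per the submitters' processing notes the values come from Affymetrix Expression Console 1.1 with RMA. The scale was read from the values (8.05 to 25315), and log2 was taken here. Of 29214 probe sets, 15310 had 1 gene symbol in the platform annotation, 323 several and 13581 none, and only the first were used, the brightest per gene, which gave 14506 genes with names updated through the GRCr8 gene table (14480 matched). Group means of the 4 groups came from limma 3.58.1 run under R 4.3.3 (functions lmFit and eBayes with a trend, two-sided, 8 residual degrees of freedom, Benjamini-Hochberg over all genes in a comparison). Array medians over all 29214 probe sets lay between 7.73 and 7.80 log2, while the median centring used medians over the 14506 genes. Precision is set by how few arrays there are: a difference of 2 groups had a median SE of 0.0951.

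The labels number the 3 cultures of each group as biological replicates 1 to 3, and these numbers were checked on deviations from group means. The 18 pairs of arrays with 1 number had correlations across genes of 0.172 to 0.689 (other pairs: median -0.271), so the number is called the experiment. Since deviations cancel within a group, the negative median of the other pairs follows from the first values and is no separate check. The main fit leaves the experiment out and the fit with it as a block is an alternative. Printed SEs and intervals, also those in the figures, are from the main fit unless the block is named. The fit was tested on simulated data with known changes.

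Members and lists were chosen with earlier results of these data known. Given in full were members called with or without the block with a change of at least 0.5, and the others by role, with values on every array also printed for Chek2, Rad50 and Xrcc1, chosen after their values were seen. Other lists gave up to 4 called genes per direction and 2 not called. Alternatives were the block (fixed or random), fewer groups, dim genes left out, median centring, quantile normalisation, mean of probe sets, no trend, and leaving out each experiment or array. Promoter windows are RefSeq's, and 33 of 37 members had one. Figures used Python 3.11.15 and matplotlib 3.10.9.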

Additional observations from a re-analysis of the deposited data

Results flagged for a closer look

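Pcna was lower in p300kd than in NS cells at 0 h and higher at 8 h in each experiment, which brought it up for a closer look. The differences (p300kd minus NS) were 0.16, 0.17 and 0.30 at 8 h and -0.09, -0.16 and -0.01 at 0 h in experiments 1 to 3. The difference of the Dox responses was 0.298 (95% confidence interval -0.39 to 0.99, adjusted p = 1.00 in limma, or 0.989 with the experiment as a block), so it did not pass. That interval comes from the fit without the block, where the SE was 0.319. With the block the SE was 0.0832, and the difference was 0.25, 0.32 and 0.32 in experiments 1 to 3.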

How the results depend on the processing

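Counts of members called after Dox were 15 in p300kd and 11 in NS cells. In NS cells the fixed block gave 22 and the random block 20. Leaving out dim genes gave 7 in p300kd and 3 in NS cells, because 15 of the 37 members then leave the fit. Of all 7709 genes kept in that fit, 3816 passed in p300kd and 3402 in NS cells. Leaving out 1 experiment or array gave 7 to 17 members in p300kd cells (7 without experiment 2, 8 without experiment 3) and 6 to 16 in NS cells (6 without experiment 3). For the siRNA the fixed block gave 1 member on the average over times, and all other alternatives 0, as for both single times and for the difference of responses under every alternative run. No member that passed changed sign under any alternative, while the uncalled Bard1 in p300kd cells and Rad18 and Atm in NS cells changed sign with median centring. Over all genes 4560 passed in p300kd cells (2017 up, 2543 down; 4344 up and 1991 down with median centring; 2269 to 4847 with 1 experiment or array left out). In NS cells 3992 passed (1617 up, 2375 down; 3800 and 1832 with median centring; 6317 with the fixed block; 1782 to 4266 left out). For p300kd minus NS at 8 h 7 genes passed, 455 with the fixed and 92 with the random block, 0 with only the groups compared, 3 without dim genes, 3 with quantile normalisation, and 0 to 17 left out. At 0 h 3 passed, 390 with the fixed and 125 with the random block, 0 with only the groups compared, 1 with quantile normalisation, and 0 to 20 left out. On average 181 passed, 1380 with the fixed and 816 with the random block, and 0 to 371 left out. The causes were not tested. The experiment as a block changed no call of a member beyond those given in the text. The fit with only the groups compared could not be had for the average or the difference of responses.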

Other observations

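The following genes were named after their values were seen. Atrip, which carries ATR to single-stranded DNA, fell by 0.71 in p300kd and 0.69 in NS cells, and Clspn, the adaptor between ATR and CHK1, by 0.53 and 0.57. Mre11, the nuclease of the complex that holds RAD50 and NBN, rose by 0.27 in p300kd cells (adjusted p = 0.0410) and was at 0.14 in NS cells (adjusted p = 0.281).

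The glycosylase genes Tdg (-0.53 in both p300kd and NS cells) and Mutyh (-0.42 and -0.38), which removes adenine mispaired with 8-oxoguanine, fell, as did Polb, the gap-filling polymerase of base excision (-0.47 and -0.45), and Polq, of the end joining route that uses short homologies (-0.46 and -0.44).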
